A study of Mus musculus with 6 samples.

Results

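Of 13390 regions formed by merging the Polycomb peaks of mouse embryonic stem cells, 789 held at least 1 peak of each of Ring1B, Cbx7, RYBP and Suz12. They were chosen by the peak calls themselves: all peaks of the 4 lists were pooled, peaks that shared at least 1 bp were joined, and a region became a member when each list had a peak in it. The members made up 5.89% of the regions and 13.1% of the sequence that the regions spanned. Chromatin immunoprecipitation and sequencing (ChIP-seq) had been done on E14Tg2A cells, a wild-type line of strain 129/Ola, cultured without feeder cells in serum with leukemia inhibitory factor and given no other treatment. There were 6 samples, 1 immunoprecipitation for each of the 4 subunits and 2 with IgG, which were not analysed here. Each list therefore rests on 1 library, no value below has a replicate check, and no test between groups of regions was made, because the groups differ by the calls that define them. Shares carry 95% Wilson intervals and medians carry exact binomial intervals from ordered values. These cover the number of regions only, and neighbouring regions are not independent. The lists give positions without counts or heights, so the depth behind a peak is unknown, and the cell type could not be checked against marker genes.

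Polycomb repressive complex 1 (PRC1) is built around the ubiquitin ligase Ring1B, which marks histone H2A. In its canonical form Ring1B is joined by a Cbx protein such as Cbx7, whose chromodomain reads trimethylated lysine 27 of histone H3, the mark written by PRC2, of which Suz12 is a core subunit. In its variant form Ring1B is joined by RYBP or its relative YAF2 in place of the Cbx protein, and this form can be recruited without the PRC2 mark. Cbx7 and RYBP bind the same surface of Ring1B and do not occur in the same complex. Separate libraries of a cell population show which stretches of DNA both forms reached, and cannot show whether they were on the same DNA molecule at the same time.

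Nearly all regions that held both Cbx7 and RYBP also held Ring1B and Suz12, as most regions with Cbx7 did. Of 794 merged regions that held both a Cbx7 and a RYBP peak, 789 held all 4 subunits (99.4%, 98.5 to 99.7%), 2 lacked Ring1B, 3 lacked Ring1B and Suz12, and 0 lacked Suz12 alone, which allows a share of up to 0.481% by the Wilson interval. Of all 2550 regions with Cbx7, 2322 held both Ring1B and Suz12 (91.1%, 89.9 to 92.1%), and of all 6756 regions with RYBP, 1838 did (27.2%, 26.2 to 28.3%). A wide Ring1B or Suz12 peak can join a Cbx7 and a RYBP peak that do not touch. In 9 members no Cbx7 peak overlapped a RYBP peak. How far merging bears on the first share was not tested. The members took 31.0% of all Cbx7 peaks (855 of 2754, 29.3 to 32.8%) and 12.4% of all RYBP peaks (855 of 6872, 11.7 to 13.2%). They held 854 of the 6982 Ring1B peaks and 868 of the 8054 Suz12 peaks. Among regions with Ring1B, Cbx7 and Suz12, 34.0% had RYBP as well (789 of 2322, 32.1 to 35.9%). Among regions with Ring1B, RYBP and Suz12, 42.9% had Cbx7 as well (789 of 1838, 40.7 to 45.2%). Peak names include a 5 in the RYBP list and a 10 in the Ring1B, Cbx7 and Suz12 lists, and what these stand for is not stated.

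For each subunit of a member, the overlap of its best-joined peak with the other lists was measured. The smallest of these overlaps was 10 bp or less in no member and 100 bp or less in 1. That member, on chromosome 13 from 91599668 to 91602408, held its RYBP peak through 95 bp shared with a Ring1B peak. The next was on chromosome 19 from 45148862 to 45156069, joined by 325 bp of RYBP. Another, on chromosome 12 from 70754660 to 70755667, was joined by 524 bp of Suz12, which was the whole Suz12 peak. The measure misses a short bridge between groups of peaks. On chromosome 4 from 57154117 to 57157732 it gave 1208 bp, yet RYBP met the Cbx7 peak and its group through only 64 bp. How often membership rested on such a bridge was not counted. Just outside the rule, a region on chromosome 11 from 57640257 to 57644455 with Ring1B, Cbx7 and Suz12 ended 103 bp from a RYBP peak. A region on chromosome 4 from 88447193 to 88450806 with Ring1B, RYBP and Suz12 lay 163 bp from a Cbx7 peak, and another on chromosome 1 from 74848217 to 74852268 lay 222 bp from one. Within 1000 bp, 16 regions missed only RYBP and 5 missed only Cbx7. RYBP had the smallest overlap in 664 of the 789 members. For a peak wholly under other lists the overlap is its own width, and RYBP peaks were the narrowest by median. The count therefore does not show that RYBP was joined more loosely.

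Most members held 1 peak of each subunit, and Ring1B and Suz12 covered nearly all of the median member. The median width was 3242 bp (interval 3105 to 3363 bp), the middle 50% of members lay between 2597 and 4417 bp, and the extremes were 1007 and 26754 bp. Exactly 1 peak of each subunit was found in 629 members (79.7%, 76.8 to 82.4%). More than 1 Suz12 peak was found in 71, more than 1 Ring1B peak in 58, more than 1 Cbx7 peak in 58 and more than 1 RYBP peak in 54. Suz12 covered a median of 96.7% of a member (quartiles 91.1 and 99.4%) and Ring1B 95.6% (90.6 and 99.1%). In the least covered member Suz12 was at 52.0% and Ring1B at 41.2%. Cbx7 covered 73.4% (61.1 and 84.3%), from 19.1% in the least covered member to 100% in the most. RYBP covered the least, 45.3% (32.1 and 61.0%), from 6.60% to 100%. By median, the lists of Suz12 and Ring1B thus had nearly the same extent, Cbx7 a shorter one, and RYBP the shortest.

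**Figure D1:**
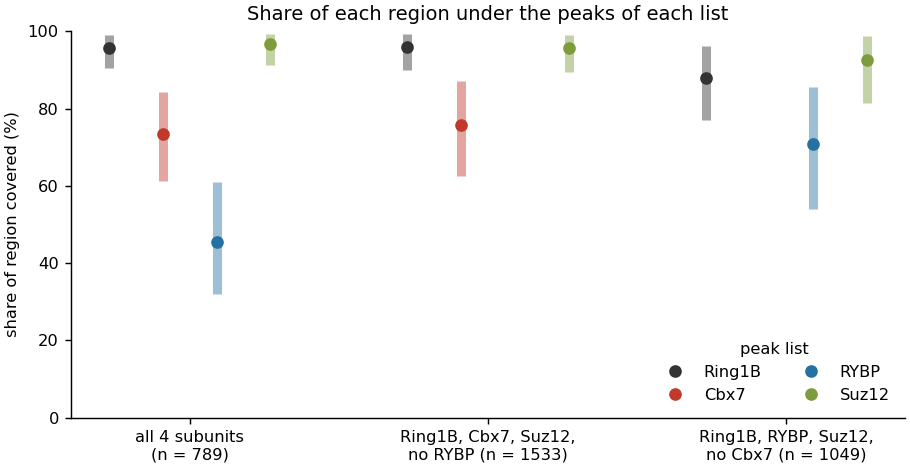
Share of each region, in percent, under the peaks of each list, in regions with all 4 subunits and in the 2 classes with 3 subunits; points are medians over regions and bars span the quartiles. Ring1B and Suz12 lie above 87% in every class, Cbx7 covers 73.4% of members and 75.8% of regions without RYBP, and RYBP covers 45.3% of members and 70.8% of regions without Cbx7.

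Summed over the 789 members, 36.1% of their 3.09 Mb lay under all 4 lists at once. A further 34.8% lay under Ring1B, Cbx7 and Suz12 without RYBP, and 14.7% under Ring1B and Suz12 alone. Only 3.24% lay under Ring1B, RYBP and Suz12 without Cbx7. Cbx7 and RYBP differed in how much sequence each held without the other: 49.8% of the Cbx7 sequence was free of RYBP, whereas 10.4% of the RYBP sequence was free of Cbx7. Of the Cbx7 sequence without RYBP, 96.7% carried both Ring1B and Suz12, and of the RYBP sequence without Cbx7, 77.0% did. Within single members the part under all 4 lists had a median of 1267 bp (1230 to 1306 bp), or 40.9% of the member. It was absent in 10 members, among them 1 on chromosome 4 from 32324839 to 32327770, where RYBP lay at the outer edge, and 1 on chromosome 4 from 57154117 to 57157732, where Cbx7 and RYBP shared 64 bp.

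Side by side with the 2 classes that have 3 of the subunits, Cbx7 peaks were wider in members by median, while the intervals of the RYBP medians overlapped. Both orders depended on which peaks were used. Regions with Ring1B, Cbx7 and Suz12 without RYBP numbered 1533, and those with Ring1B, RYBP and Suz12 without Cbx7 numbered 1049. Over all peaks in them, Cbx7 peaks had a median width of 2206 bp in members (2132 to 2311 bp) and 1936 bp in regions without RYBP (1882 to 1989 bp). RYBP peaks had a median width of 1338 bp in members (1304 to 1368 bp) and 1321.5 bp in regions without Cbx7 (1289 to 1358 bp). With the widest 2754 peaks of each list the RYBP order turned and the intervals no longer overlapped, at 1670 bp in members (1637 to 1718 bp) and 1803 bp without Cbx7 (1729 to 1873 bp). With peaks of at least the median width of their list the Cbx7 order turned, at 2672.5 bp in members (2612 to 2821 bp) and 2702 bp without RYBP (2618 to 2797 bp). In both settings the classes were formed again from the peaks kept, so a region counted without a subunit may hold a narrower peak of it. For Ring1B the median peak spanned 2866.5 bp in members, 2476 bp without RYBP and 1716 bp without Cbx7. Suz12 peaks had medians of 2892, 2396 and 1817 bp in the same order. RYBP covered 70.8% of the narrower regions without Cbx7 and 45.3% of the members, with nearly the same length in each, 1336 and 1393 bp.

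The Ring1B peaks of the members were also wider. Compared within bands of Ring1B peak width, in regions with 1 peak of each subunit, the intervals of the Cbx7 medians with and without RYBP overlapped. For Ring1B peaks of 1500 to 2500 bp, the median Cbx7 peak was 1657.5 bp in 206 members (1605 to 1742 bp) and 1632.5 bp in 484 regions without RYBP (1593 to 1681 bp). For Ring1B peaks of 2500 to 3500 bp, it was 2188.5 bp in 230 members (2089 to 2275 bp) and 2280 bp in 354 regions without RYBP (2222 to 2348 bp). Above 3500 bp it was 3350 bp in 168 members (3155 to 3609 bp) and 3389 bp in 244 regions without RYBP (3292 to 3588 bp). Below 1500 bp it was 1206 bp in 25 members (1096 to 1323 bp) and 1084 bp in 148 regions without RYBP (1048 to 1147 bp). Overlapping intervals do not show that the widths were equal. The median RYBP peaks of members and of regions without Cbx7, from the 1500 to 2500 bp band upwards, were 1302 and 1386 bp, 1413 and 1522 bp, and 1458.5 and 1602.5 bp. Their intervals overlapped in each band, and the last value rests on 32 regions without Cbx7.

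The length under RYBP differed less between narrow and wide members than the lengths under the other 3 lists did. When the members were ordered by width and divided into 4 equal groups, the median member of the narrowest group spanned 2172.5 bp and that of the widest 5955 bp. Cbx7 covered a median of 1599.5 bp in the narrowest group (1529 to 1642 bp), 2047 bp in the second, 2598 bp in the next and 4368 bp in the widest (4118 to 4709 bp). RYBP covered 1255.5 bp in the narrowest group (1207 to 1335 bp), 1411 bp, 1481 bp and 1534 bp in the widest (1345 to 1729 bp). As a share of the member, RYBP was at 63.7% in the narrowest group and 24.9% in the widest, while Cbx7 was at 77.5% in the narrowest group and 75.3% in the widest. The width of a member spans all its peaks, so Ring1B and Suz12, which set most outer edges, had to grow with it. Across the 629 members with 1 peak of each, which are not independent replicates, Ring1B and Suz12 peak widths had a Pearson correlation of 0.95 and a Spearman correlation of 0.92. Ring1B and Cbx7 widths had 0.89 and 0.81, and Cbx7 and RYBP widths 0.18 and 0.19. The points share their libraries and the merging that put the peaks together.

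**Figure D2:**
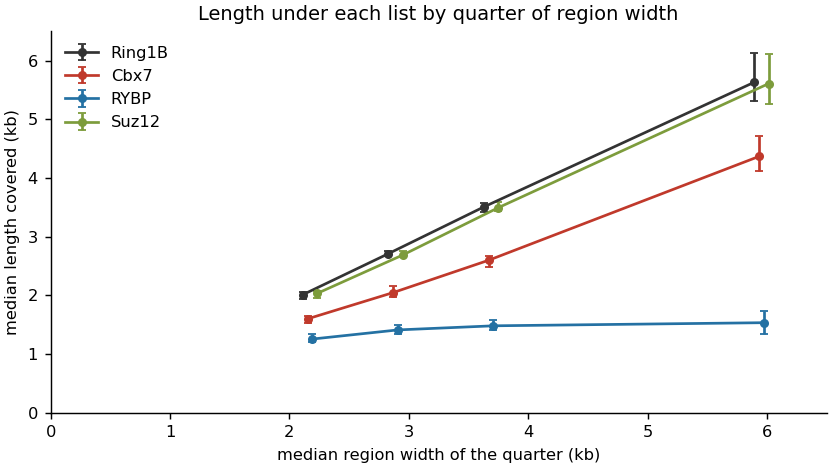
Median length under each list in kb against the median width in kb of members divided into 4 groups by width (197 or 198 each); bars are 95% intervals of the median and points are shifted slightly sideways for legibility. Ring1B, Suz12 and Cbx7 rise with the width of the member, and RYBP rises less, from 1255.5 to 1534 bp.

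In most members with 1 peak of each, RYBP lay within Cbx7 or over its edge. Cbx7 lay within Ring1B in most and, counted separately, within Suz12 in most. Among the 629 members with 1 peak of each, the Cbx7 peak was wider than the RYBP peak in 523 (83.1%, 80.0 to 85.9%), with a median ratio of widths of 1.44. The Ring1B peak was wider than the Cbx7 peak in 582 (92.5%), whereas Suz12 was wider than Ring1B in 310 (49.3%, 45.4 to 53.2%). RYBP lay wholly inside Cbx7 in 335 members (53.3%, 49.4 to 57.1%), lay over 1 of its edges in 255 (40.5%), passed both in 35 (5.56%) and lay wholly outside it in 4 (0.636%). In the 290 members where RYBP touched Cbx7 and reached past it, it did so by a median of 204 bp (178 to 225 bp). Cbx7 lay wholly inside Ring1B in 471 (74.9%) and inside Suz12 in 449 (71.4%), and where it passed Ring1B it did so by a median of 63.5 bp. The full order, RYBP inside Cbx7 inside Ring1B, held in 237 members (37.7%, 34.0 to 41.5%), and with Cbx7 also inside Suz12 in 193 (30.7%).

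The outer limits of the members were drawn by Suz12 and Ring1B in nearly equal number. Of the 1578 outer edges, Suz12 set 714 (45.2%, 42.8 to 47.7%) and Ring1B 666 (42.2%, 39.8 to 44.7%). Cbx7 set 115 (7.29%) and RYBP 77 (4.88%), and the remaining edges were shared by 2 lists. In regions without RYBP, Cbx7 set 11.1% of the edges, and in regions without Cbx7, RYBP set 25.8%. The edge of Ring1B lay a median of 110.5 bp from that of Suz12 on the same side, 249 bp from that of Cbx7 and 594 bp from that of RYBP. RYBP lay wholly inside the Ring1B peak in 82.0% of these members (78.8 to 84.8%) and in 42.5% of the regions without Cbx7 (39.4 to 45.6%). Ring1B peaks were wider in the members. For Ring1B peaks below 1500 bp the shares were close, 20% of 25 members and 16.1% of 341 regions without Cbx7. For Ring1B peaks of 1500 to 2500 bp the shares were 75.7% and 52.5%, and for those of 2500 to 3500 bp they were 86.5% and 71.2%. Above 3500 bp they were 92.9% and 71.9%, the latter from 32 regions.

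**Figure D3:**
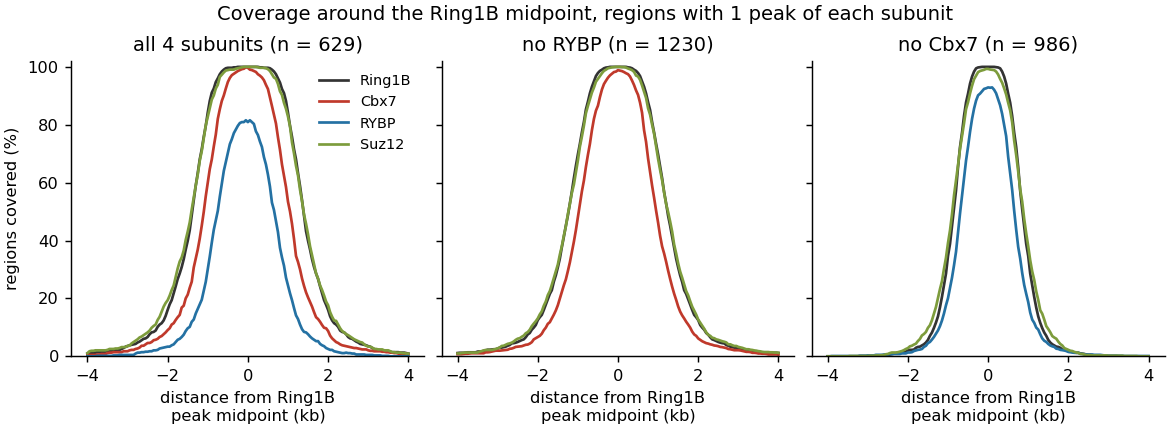
Share of regions, in percent, covered by each list at each distance in kb from the Ring1B peak midpoint, in genome orientation, for regions with 1 peak of each subunit they hold (629 members, 1230 regions without RYBP, 986 regions without Cbx7). In members RYBP covers 80.9% of Ring1B midpoints and Cbx7 99.7%, and the Ring1B and Suz12 curves nearly coincide.

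At the Ring1B midpoint, Suz12 was present in 100% of the members with 1 peak of each, Cbx7 in 99.7% and RYBP in 80.9%. At 1000 bp to either side Ring1B still covered 84.2% of members on average over the sides, Suz12 82.8%, Cbx7 56.8% and RYBP 27.3%. At 2000 bp the shares were 16.1% for Ring1B, 18.5% for Suz12, 8.90% for Cbx7 and 2.94% for RYBP. In regions without Cbx7, RYBP covered 92.9% of the Ring1B midpoints. Ring1B peaks there were narrower, with a median of 1710.5 bp against 2770 bp in members, and these shares were not compared at equal Ring1B width. In the members, RYBP missed the Ring1B midpoint more often than Cbx7 did by count of regions, with no test made.

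The midpoints of Cbx7 and RYBP lay a median of 271.5 bp apart (248 to 290.5 bp), taking the closest pair of peaks in each member. The middle 50% of members lay between 121 and 571.5 bp, and the median was 8.32% of the width of the member. The distance was at most 100 bp in 159 members (20.2%), at most 250 bp in 369 (46.8%), at most 500 bp in 562 (71.2%) and at most 1000 bp in 697 (88.3%, 85.9 to 90.4%). The other pairs with RYBP had medians of 306 bp to Ring1B and 308 bp to Suz12. The pairs without RYBP were closer: 106 bp from Ring1B to Suz12, 147 bp from Ring1B to Cbx7 and 167.5 bp from Suz12 to Cbx7. The Ring1B to Cbx7 distance was 140.5 bp in regions without RYBP (130.5 to 153 bp), against 137.5 to 163.5 bp as the interval in members. The Ring1B to RYBP distance was 176 bp in regions without Cbx7 (161 to 188 bp), where Ring1B peaks were narrower by median. Within bands of Ring1B width, in regions with 1 peak of each, neither class was closer throughout. Below 1500 bp the distance was 124 bp in members (46 to 209 bp) and 94.5 bp without Cbx7 (76.5 to 113.5 bp), and from 1500 to 2500 bp it was 178.75 bp (164.5 to 214 bp) and 191.5 bp (177.5 to 215 bp). From 2500 to 3500 bp it was 269.5 bp (234.5 to 320 bp) and 346.5 bp (276 to 435.5 bp), and above 3500 bp it was 544.75 bp (439.5 to 612.5 bp) and 530.5 bp (268 to 910 bp).

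**Figure D4:**
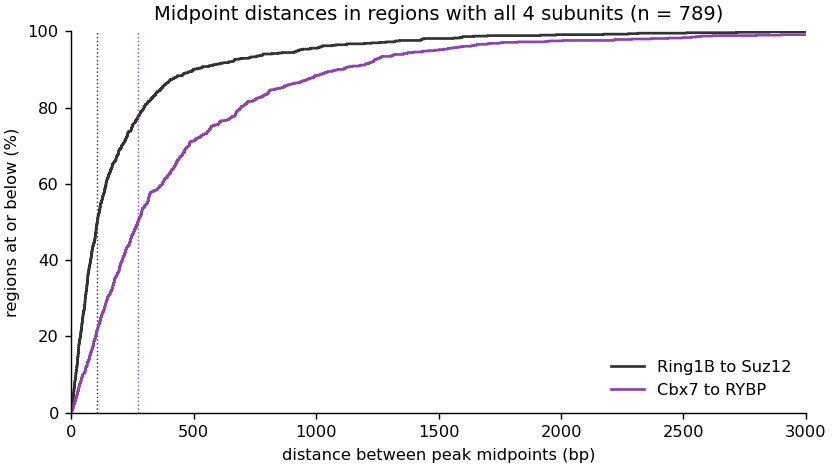
Cumulative share of the 789 members, in percent, against the distance in bp between peak midpoints, for Cbx7 to RYBP and for Ring1B to Suz12; dotted lines mark the medians of 271.5 and 106 bp. The axis ends at 3000 bp, beyond which lie 7 members for Cbx7 to RYBP and 1 for Ring1B to Suz12.

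Cbx7 and RYBP shared sequence in 780 of the 789 members (98.9%, 97.8 to 99.4%). In 431 members every base under RYBP was also under Cbx7 (54.6%), and in 43 every base under Cbx7 was also under RYBP (5.45%). In the median member 60.4% of the length under Cbx7 was also under RYBP (57.4 to 63.3%). Where RYBP was nested in Cbx7, its offset from the middle was measured as a percent of the room available, so that 0% is centred and 100% touches an edge. The median offset was 48.5% in 335 nested peaks (43.3 to 55.2%), and 173 of them (51.6%) had an offset of at most 50%. Inside Ring1B the median offset of RYBP was 41.3% in 516 members (38.1 to 44.4%) and 48.2% in 419 regions without Cbx7 (42.5 to 54.7%). That of Cbx7 inside Ring1B was 42.0% in 471 members and 45.2% in 851 regions without RYBP.

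In 9 members no Cbx7 peak touched a RYBP peak. Their midpoint distances ran from 1319 to 5738 bp and their widths from 2740 to 16772 bp. RYBP reached an outer edge of the region in 4 of them. The 5 members with the largest Cbx7 to RYBP distance spanned between 6.76 and 16.8 kb, and 2 of them had no base shared by Cbx7 and RYBP. On chromosome 11 from 85641900 to 85658672, 2 Cbx7 peaks ended by 13.2 kb from the region's start, and a RYBP peak of 1252 bp lay beyond them, 5738 bp from the closer Cbx7 midpoint. On chromosome 7 from 144500098 to 144515583, the distance was 4665 bp and the RYBP peak of 1251 bp was wholly under a Cbx7 peak of 11.5 kb. On chromosome 2 from 172370921 to 172377685, the distance was 3755 bp with no shared base. The other two lay on chromosome 11 from 118941824 to 118953482, at 3705.5 bp, and on chromosome 2 from 105506214 to 105518445, at 3537.5 bp.

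At the other end, the midpoints coincided on chromosome 7 from 20107828 to 20111037. They lay 1 bp apart on chromosome 6 from 52197603 to 52204793 and 2 bp apart on chromosome 5 from 23892712 to 23895022. These 3 members spanned 3.21, 7.19 and 2.31 kb, so close midpoints were not limited to narrow regions. The member of 7.19 kb held 2 Cbx7 peaks, and its distance is to the closer one. By median the distance was larger in wider members. It was 151 bp in the narrowest of the 4 groups by width (117 to 195 bp) and 570 bp in the widest (462 to 719.5 bp). As a share of member width these medians were 7.99 and 9.47%. A distance of 2 bp was also found in the narrowest member, on chromosome 12 from 70754660 to 70755667, which RYBP covered wholly while the other lists covered between 52.0 and 55.7%. The next narrowest, on chromosome 4 from 41677765 to 41678928 and on chromosome 19 from 37308050 to 37309314, spanned 1163 and 1264 bp and lay under all 4 lists over 94.2 and 92.1% of their length. A member on chromosome 11 from 115179136 to 115180792 had 92.8% under all 4. In the last 3 members named, the 4 lists had nearly the same interval.

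The 5 widest members showed RYBP as short peaks on long stretches of the other subunits. The widest, on chromosome 11 from 118895113 to 118921867, spanned 26.8 kb and held 15 peaks, the most of any member. It was covered to 97.1% by Ring1B, to 99.8% by Suz12, to 75.3% by 4 Cbx7 peaks and to 31.0% by 6 RYBP peaks, each between 782 and 2206 bp wide. On chromosome 5 from 140014962 to 140030253, a single RYBP peak of 1009 bp covered 6.60% of 15.3 kb, the smallest RYBP share of any member, and Cbx7 covered 90.4%. The members on chromosome 7 and on chromosome 11 from 85641900, given above, were the other two over 15 kb, with RYBP on 8.08 and 7.46%. The fifth, on chromosome 16 from 17795605 to 17809053, had 3 RYBP peaks and 3 Cbx7 peaks, and every base under RYBP was also under the other 3 lists. The member on chromosome 5 and another on chromosome 6 from 52258509 to 52269789 held 10 peaks each. The lists hold no heights, so how strong the signal was in these broad stretches is unknown.

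Of the members, 35.6% had another region close by and 7.49% had another member close by. Another region of any kind lay within 10000 bp of 281 members (35.6%, 32.4 to 39.0%), of 44.1% of the regions without RYBP (41.6 to 46.6%) and of 31.2% of those without Cbx7 (28.4 to 34.0%). A region of the same class lay within 10000 bp of 59 of 788 members (7.49%, 5.85 to 9.54%), of 25.3% of the regions without RYBP (23.2 to 27.5%) and of 6.01% of those without Cbx7. Both the 1533 regions without RYBP and the 1049 without Cbx7 outnumber the members. The differences between the classes, and whether class size bears on them, were not tested. The median gap to the nearest other region was 23981 bp for members, 18593 bp without RYBP and 24063 bp without Cbx7.

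The kind most often nearest was RYBP alone, though below its share of all regions, and the next was Suz12 alone. The nearest region held RYBP alone for 203 members (25.7%) and Suz12 alone for 153 (19.4%). These kinds made up 31.7 and 14.8% of all regions. Ring1B with Suz12 was nearest for 130 (16.5%, against 15.7% of all regions) and Ring1B with Cbx7 and Suz12 for 99 (12.5%, against 11.4%). Another member was nearest for 70 (8.87%, against 5.89%) and Ring1B with RYBP and Suz12 for 58 (7.35%, against 7.83%). Among the 281 members with a neighbour within 10000 bp, RYBP alone was nearest for 26 (9.25%), Suz12 alone for 64 (22.8%), and Ring1B with Cbx7 and Suz12 for 58 (20.6%). RYBP alone was thus nearest in a smaller share at this distance than over all members, although it is the most frequent kind of region in the series. For the regions without Cbx7, RYBP alone was nearest within 10000 bp in 26.6% of 327, and for the regions without RYBP in 4.29% of 676, so the members lay between the other classes.

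Most members stood alone, and 3 runs held 4 or more. With gaps under 50000 bp counted as a run, 660 members had no other member beside them, and 129 (16.3%, 13.9 to 19.1%) lay in runs. The longest run had 9 members and lay on chromosome 6 from 52119353 to 52269789. In these 150.4 kb there were 13 further regions: 6 with Ring1B, Cbx7 and Suz12, 5 with Ring1B and Suz12 and 2 with Suz12 alone. No region in it held RYBP without the other 3. The 9 members ranged from 1.42 to 12.3 kb and RYBP covered between 18.5 and 85.8% of them. On chromosome 18 from 37841008 to 37923998, 8 members of 1.68 to 3.54 kb lay among 7 other regions, none with RYBP, over 83.0 kb. On chromosome 2 from 118501463 to 118573610, 4 members lay within 72.1 kb with 1 Suz12 region between them.

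The members were spread over all 19 autosomes. Chromosome 2 held 84 among its 1022 regions of any kind, chromosome 6 held 72 among 900 and chromosome 11 held 69 among 1106. Over all chromosomes, 789 of 13390 regions were members (5.89%). As a share of the regions with Ring1B, Cbx7 and Suz12 on the same chromosome, members ranged from 25.6% on chromosome 14 (17.3 to 36.3%) to 47.3% on chromosome 11 (39.3 to 55.3%) and 52.9% on chromosome 6 (44.6 to 61.1%). On chromosome X 1 of 70 such regions was a member (1.43%, 0.253 to 7.66%), and 5 regions there held Ring1B, RYBP and Suz12. The order of chromosomes depended on the regions compared. Among autosomal regions with Ring1B, RYBP and Suz12, members ranged from 23.8% on chromosome 14 (16.0 to 33.9%) to 62.3% on chromosome 18 (48.8 to 74.1%). Chromosome 6 was then at 50.7% and chromosome 11 at 39.4%.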

How the data were processed

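The authors deposited 1 peak list for each of Ring1B, Cbx7, Suz12 and RYBP, with start and end in base pairs and no score. The submitters' processing notes name the build mm9, MACS 1.3.7.1 and Bowtie 0.12.7, without saying what each did. The sources used here do not name the threshold or the control. Coordinates are printed as listed, and whether starts count from 0 or 1 is not stated. Samples were grouped by the target in their description. Peaks were merged, and midpoint distances, covered lengths, nesting and gaps were computed in pandas 2.3.3 and numpy 2.4.6 under Python 3.11.15, intervals in SciPy 1.17.1. Plots were drawn in matplotlib 3.10.9. Merging and distances were tested on simulated data. No mm9 genome or annotation was used here, so no gene or sequence is given. Named regions were the extremes of width, distance, peak number, share under all 4 lists and joining overlap. Members and measures were chosen with earlier results of these data known. The bands of Ring1B width and the groups by member width were added after the values were seen.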

Additional observations from a re-analysis of the deposited data

How the results depend on the processing

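Requiring that 50% of the shorter peak be shared, or leaving out chromosomes X and Y, kept all 14 values within their intervals, with 788 members in each case. Under the 50% rule these were not all the same ones. The RYBP peaks of the members on chromosome 13 from 91599668 and on chromosome 19 from 45148862 fell short of it. Joining peaks within 1 kb also gave 789 regions, which are not all the same ones, with a median width of 3422 bp. Their median shares under Ring1B, Cbx7, RYBP, Suz12 and all 4 lists were 94.4, 69.8, 43.0, 95.5 and 38.2%, with Cbx7 and RYBP overlapping in 97.5% and a region within 10 kb in 29.4%. With peaks of at least the median width of their list, there were 329 members, with a median width of 3909 bp, a Cbx7 to RYBP distance of 351 bp, 96.3% under Ring1B, 76.9% under Cbx7 and 28.9% with a region within 10 kb. Cbx7 peaks were then 2672.5 bp wide in members and 2702 bp without RYBP, and RYBP peaks 1640 bp in members and 1621 bp without Cbx7. With the widest 2754 peaks of each list, 377 members were found, 3532 bp wide, with 49.4% under RYBP, 45.8% under all 4, 99.5% with Cbx7 and RYBP overlapping and 25.2% with a region within 10 kb. Cbx7 peaks were 2433 and 2345 bp wide, and RYBP peaks 1670 and 1803 bp, in the same order. These settings choose wide peaks by construction, and their classes were formed again from the peaks kept. A region counted without a subunit may thus hold a narrower peak of it. The order of Cbx7 widths turned in the first setting and that of RYBP widths in the second. In the second the intervals of the RYBP medians did not overlap. Members with 1 peak of each were 2969 bp wide, with a distance of 246.5 bp, 47.4% under RYBP, 44.4% under all 4, 32.1% with a region within 10 kb and Cbx7 peaks of 2062 bp.

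Merging without the Suz12 list, an alternative added after seeing the data, gave 791 regions with the other 3 subunits, with a median of 3012 bp, 100% under Ring1B, 78.6% under Cbx7 and 48.0% under RYBP, and RYBP peaks of 1287.5 bp without Cbx7. No paired analysis was possible because each target has 1 library. Leaving out a replicate was not possible for the same reason. Depth is unknown without counts, so weak sites of any subunit may be missing from its list.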
